A study of Mus musculus with 8 samples.

Results

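The genes described here encode the proteins of the cytosolic ribosome, those named Rpl for the large subunit and Rps for the small subunit, with Rplp0, Rplp2 and Rpsa. A gene was included when its symbol matched that pattern and a probe set of the array was annotated to it alone; genes for ribosomal protein kinases, pseudogenes and like-genes were left out. The probe set with the highest mean signal stood for each gene. This gave 42 genes of the 12393 genes that had a probe set to themselves, and 41 of the 42 passed the filter on low signals, 21 of the large and 20 of the small subunit. Rpl27a was the gene that did not pass, with signals from 72.8 to 151 on the 8 arrays for the brighter of its own probe sets. A probe set that lists Rpl27a with predicted loci gave 12959 to 18729. Another 27 ribosomal protein symbols, Rpl3, Rpl5, Rpl10, Rpl26 and Rplp1 among them, occurred only on probe sets that also list other genes, so the 41 genes are a subset of the ribosome.

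The cells were MCE301, a line of mouse colonic epithelium established from mice with a transgene for a temperature-sensitive large T-antigen of simian virus 40, which the 0 h cells carry as well. They received sodium butyrate at 2 mM for 0, 6, 12 or 24 h, and each time has 2 arrays. Butyrate is a product of gut bacteria and a histone deacetylase inhibitor. All cells came from this 1 line, and the 6, 12 and 24 h cells have no untreated partner, so hours in culture and hours with butyrate cannot be told apart. Whether the arrays of a time hold separate cultures is unstated, so p-values measure only the spread between arrays, which may be technical.

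Ribosomal proteins are made in near-equal numbers, since each ribosome holds a copy of almost every one of them, and their mRNAs are among the most abundant in dividing cells. Transcripts of these genes typically begin with a run of C and T bases, the terminal oligopyrimidine (TOP) tract. Through this tract the mTOR pathway, with the RNA-binding protein LARP1, controls their translation and stability, so that ribosome production can change without a change in mRNA level. Free ribosomal proteins such as RPL5 and RPL11 can bind MDM2 when ribosome assembly fails.

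The start regions of 8 of the genes are shown because the tract is the sequence feature these genes are known for. Each line holds 15 bases before and 15 bases from the annotated start, 5′ to 3′ on the transcript's strand, from RefSeq on GRCm38.p6, with the longest run of C and T in capitals. The first 4 have the longer runs, followed by Rpl12 and Rps25, which the tests singled out, and by Rplp0 and Rpsa.
Rps6 (chr4:86857353-86857382, minus strand): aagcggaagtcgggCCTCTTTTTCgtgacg
Rpl38 (chr11:114668565-114668594, plus strand): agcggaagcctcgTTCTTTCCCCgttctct
Rplp2 (chr7:141447636-141447665, plus strand): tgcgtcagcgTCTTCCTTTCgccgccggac
Rps10 (chr17:27635230-27635259, minus strand): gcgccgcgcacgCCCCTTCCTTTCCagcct
Rpl12 (chr2:32961697-32961726, plus strand): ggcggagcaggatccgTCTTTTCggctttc
Rps25 (chr9:44407699-44407728, plus strand): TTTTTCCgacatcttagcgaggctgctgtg
Rplp0 (chr5:115559452-115559481, plus strand): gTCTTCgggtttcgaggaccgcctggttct
Rpsa (chr9:120127751-120127780, plus strand): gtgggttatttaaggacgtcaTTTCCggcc
The run covered 10 bases in Rps6, Rpl38 and Rplp2, 13 in Rps10, 7 in Rpl12 and Rps25, and 5 in Rplp0 and Rpsa. In Rps6, Rpl38, Rplp2 and Rps10 it spanned the annotated start, whereas in Rps25 and Rplp0 it lay upstream of it.

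RefSeq start regions were found for 36 of the 41 genes, with 42 annotated starts in all. At least 1 of the pyrimidine motifs CTTTT or CTTTC or CTCTT or CCTTT or CTTCC, which can overlap each other, stood in the 30-base window on the transcript's strand at 16 of the 42 starts (38.1%), against 16.4% of 32851 mouse starts. On the opposite strand the shares were 16.7% and 17.2%. Over 300 bases, 250 of them before the start, CCGGAAG, a core of the sites bound by ETS factors such as GABP, stood on either strand at 42.9% of the ribosomal protein starts and at 8.86% of all starts. AAGATGGCG, a core of sites bound by YY1, stood at 4.76% and 1.4%. TATAAA stood at 11.9% and 13.6%, and CACGTG, the E-box that MYC binds, at 11.9% and 7.15%. These are matches of letters only.

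Signals were deposited already scaled, with a trimmed mean between 500.18 and 500.20 on every array. Among markers of colonic epithelium, 10 of 13 passed the filter, the keratins Krt8, Krt18 and Krt19 and Epcam among them. Vil1, Cdx1 and Lgals4 stayed at or under 40.7, 7 and 114 on all arrays. None of the 8 fibroblast or the 5 endothelial markers passed. Of the 5 immune markers on the array 1 passed, Cd68, a lysosomal protein, at 385 to 1119, while the general leukocyte marker Ptprc stayed at or under 109. The summed signal of the 5 immune markers was 562 to 608 at 0 h, 516 to 553 at 6 h, 625 to 672 at 12 h and 1237 to 1290 at 24 h, with none at 0 on any array. Cd68 carried the higher sum at 24 h, with 424 and 425 at 0 h and 1041 and 1119 at 24 h, while the other 4 markers summed to 137 to 184 at 0 h and 170 to 197 at 24 h. The 13 epithelial markers summed to 63509.9 and 70872 at 0 h and to 94107 and 114954 at 24 h. They did not all move alike. Krt20 rose from 1119 and 1634 to 12430 and 18156, while Cldn3 fell from 8783 and 10001 to 4128 and 5498. By the test given below, 6 of the 10 were called higher and 2 lower at 24 h, 80% against 48.1% of all genes. What part the immune and epithelial differences have in the ribosomal protein values was not tested.

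Few ribosomal protein genes were called with butyrate, while up to 48.1% of all genes tested were. By limma, on log2(signal + 32) of all 8 arrays, calls were made at adjusted p under 0.05 (Benjamini-Hochberg over the 7340 genes tested). At 6 h, 0 of the 41 ribosomal protein genes were called higher and 0 lower, against 9.06% and 6.68% of all tested genes, and 1 had an unadjusted p under 0.05. At 12 h, 0 were called higher and 1 lower, against 18.1% and 17.5% of all genes. At 24 h, 0 were called higher and 2 lower, against 24.6% and 23.5%, and at both of these times the same counts had an unadjusted p under 0.05. For 12 h against 6 h limma called 0 higher and 0 lower, against 2.03% and 2.14% of all genes. For 24 h against 12 h it called 0 and 0, against 1.81% and 3.58%.

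The size of the changes showed the same contrast. The median log2 change of the 41 genes against 0 h was -0.06 at 6 h, 0.06 at 12 h and 0.09 at 24 h, and that of all genes was 0.01, 0.03 and 0.04. After quantile normalization the medians of the 41 were -0.019, -0.0035 and 0.021, so the 12 h median changed sign and the 24 h median came closer to 0. At 24 h the middle 50% of the ribosomal protein genes lay between 0.02 and 0.14, and that of all genes between -0.46 and 0.49. A change within 0.25 log2 units of 0 was measured in 40, 39 and 37 of the 41 genes at 6, 12 and 24 h, and in 48.9%, 34.8% and 29.1% of all genes. Among the 109 other tested genes with a mean signal over 8000, the shares were 81.7%, 57.8% and 37.6%, so the contrast at 6 h was smaller among bright genes. The large and small subunits gave medians of 0.09 and 0.08 at 24 h, with 1 gene called lower in each. The array measures mRNA relative to the rest of the RNA, so less RNA per cell and fewer cells cannot be told apart, and a change of all mRNAs together would not show.

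**Figure D1:**
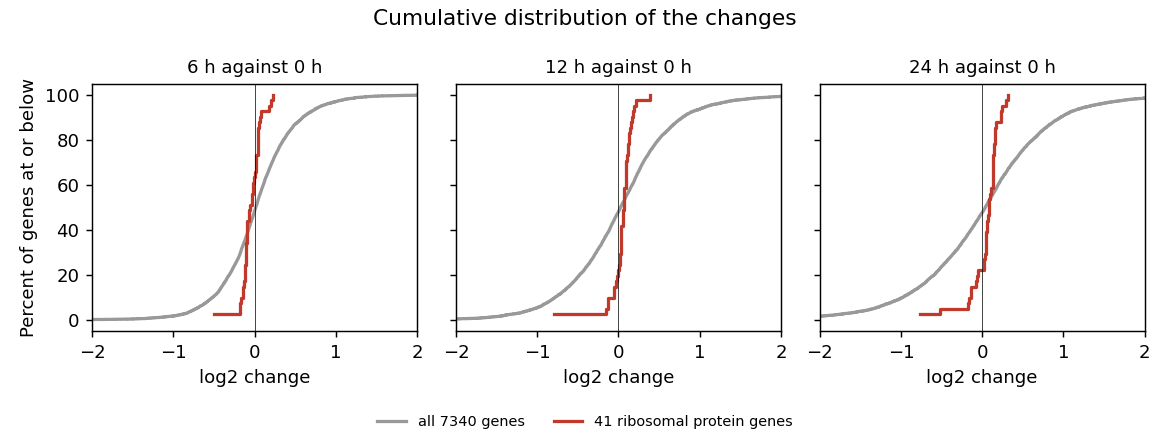
Cumulative percent of genes (vertical axis) at or below each log2 change against 0 h (horizontal axis) for 6, 12 and 24 h, with 1 line for the 41 ribosomal protein genes and 1 for the 7340 genes tested. The ribosomal protein line climbs steeply near 0 at each time, while the line of all genes widens, its middle 50% reaching from -0.46 to 0.49 at 24 h.

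How far a change can be bounded follows from the spread between arrays. The median standard error of a log2 change was 0.21 for the ribosomal protein genes and 0.18 for all genes. The 95% interval of the change lay wholly within 2-fold either way for 41, 39 and 40 of the 41 genes at 6, 12 and 24 h, against 79.5%, 66.3% and 57.3% of all genes. For the 109 other genes with a mean signal over 8000 the shares were 99.1%, 91.7% and 78.0%. The interval lay within 1.5-fold for 27, 25 and 19 of the 41 ribosomal protein genes (65.9%, 61.0% and 46.3%). Over all genes the shares were 34.1%, 22.5% and 18.9%, and over those 109 genes 68.8%, 38.5% and 24.8%. At 6 h the share was thus no higher than among the other genes with a mean signal over 8000. With 2 arrays per time and the signals as deposited, most of the genes were thus bounded within 1.5-fold at 6 and 12 h but not at 24 h. The standard error of a gene was the same at each time, so these counts differ through the sizes of the changes, not through the precision.

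Most of these genes gave bright signals, with a mean over 8000 in 33 of the 41. None of those 33 was called by limma at 6, 12 or 24 h, and 0 had an unadjusted p under 0.05 at these times. The other 109 tested genes with a mean signal over 8000 were called in 0.917%, 14.7% and 32.1% of cases at 6, 12 and 24 h. Their log2 changes at 24 h ranged from -1.82 to 2.03, and those of the 33 ribosomal protein genes from -0.16 to 0.25. Other bright genes were thus rarely called at 6 h too, and more often at 12 and 24 h.

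**Figure D2:**
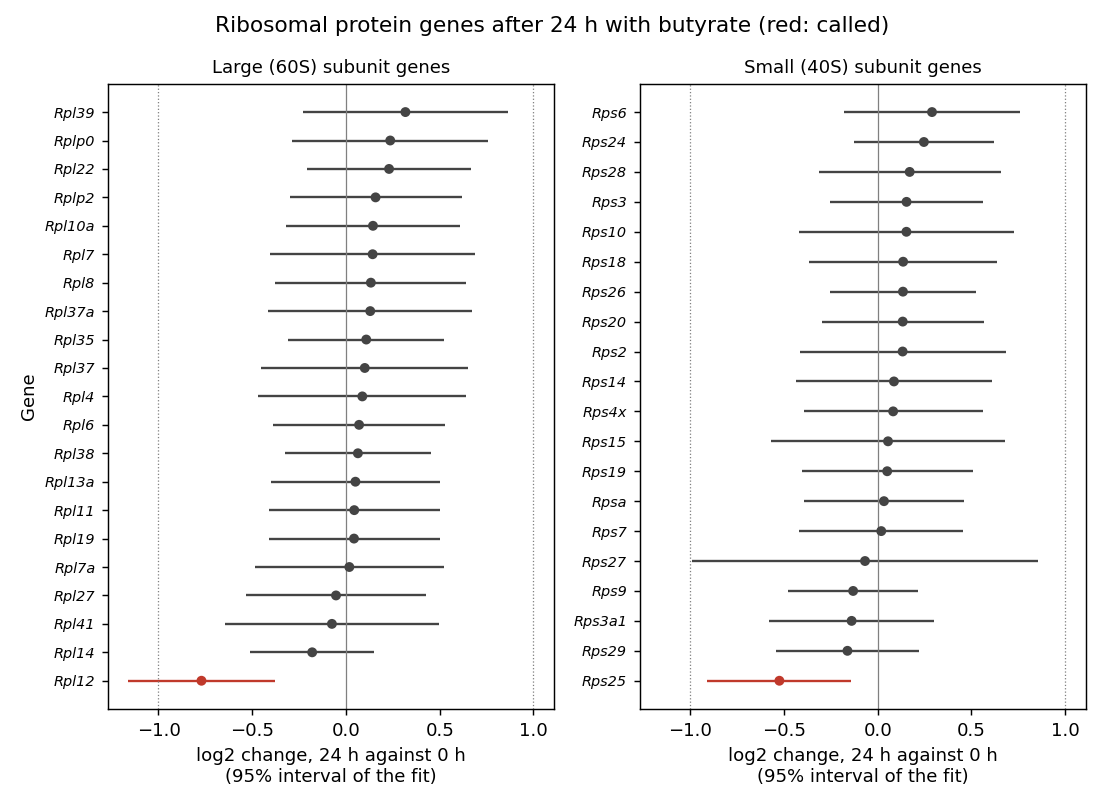
Log2 change at 24 h against 0 h (horizontal axis) of each of the 41 genes (vertical axis), large subunit and small subunit in separate panels, with the 95% interval of the fit as a line and called genes in red. Rpl12 at -0.77 and Rps25 at -0.52 are the genes whose intervals lie below 0 and which were called.

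Rplp0 and Rplp2 encode proteins of the stalk of the large subunit, which recruits elongation factors. Rplp0 gave signals of 18379 and 23224 at 0 h, 17141 and 26300.5 at 6 h, 20805 and 25633 at 12 h, and 21454.5 and 27604 at 24 h. Array 1 of each time was low and array 2 high, and the times overlapped. Its log2 change at 24 h was 0.24 ± 0.24 (SE, limma adjusted p = 0.440), with a 95% interval from -0.29 to 0.76. For Rplp2, with 20006 and 19979 at 0 h and 20510.4 and 24257 at 24 h, the log2 change was 0.16 ± 0.21 (limma adjusted p = 0.561).

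Among the other large subunit genes, Rpl11, whose protein can bind MDM2, gave 8982 and 11048 at 0 h and 9069 and 11633 at 24 h. The 2 times overlapped, and the log2 change was 0.04, with a 95% interval from -0.41 to 0.50. Mdm2 itself, not a ribosomal gene, had a log2 change of 0.23 ± 0.17 (SE, limma adjusted p = 0.287). Rpl38, known for a role in the translation of particular developmental mRNAs, gave 20629 and 23577 at 0 h and 22291 and 23827 at 24 h, a log2 change of 0.06 (95% interval from -0.33 to 0.45). The genes with the highest mean signals were Rpl41, Rpl7a and Rplp0, and Rpl41 and Rpl7a had log2 changes at 24 h of -0.08 ± 0.26 and 0.02 ± 0.23. Rpl13a, often used as a reference gene, gave a log2 change of 0.05 with a 95% interval from -0.40 to 0.50.

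In the small subunit, Rpsa, which also serves as a laminin receptor, gave 13984 and 17021 at 0 h and 14713 and 16942 at 24 h. Both 24 h values lay between the 0 h values, and the log2 change was 0.03, with a 95% interval from -0.39 to 0.46. Rps6, whose protein is phosphorylated downstream of mTOR, gave 430.5 and 383 at 0 h, 466 and 297 at 6 h, 374 and 453.5 at 12 h, and 468 and 540.3 at 24 h. Its 24 h arrays were above its 0 h arrays, and the difference of 0.29 ± 0.21 was not called (limma adjusted p = 0.287). Rps3, Rps14 and Rps19, the last 2 known from inherited or acquired anaemias, had log2 changes at 24 h of 0.15, 0.09 and 0.05. The highest log2 change of any of the 41 at 24 h was that of Rpl39, 0.32 ± 0.25 (SE, limma adjusted p = 0.319). Its probe set was dim, with 289 and 363 at 0 h and 419 and 403.5 at 24 h.

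Rpl12 and Rps25 were the genes called. Rpl12, a large subunit protein near the base of the stalk, gave signals on its own probe set of 162 and 198 at 0 h, 128 and 106 at 6 h, 77.3 and 104 at 12 h, and 92.2 and 91.3 at 24 h. Every treated array was below both 0 h arrays. The mean fell from 180 ± 25.2 (SD, n = 2) at 0 h to 90.8 ± 19.1 at 12 h and 91.8 ± 0.636 at 24 h. On the log2(signal + 32) scale this was a change of -0.79 ± 0.18 at 12 h (limma adjusted p = 0.00634) and -0.77 ± 0.18 at 24 h (adjusted p = 0.00474), and -0.51 ± 0.18 at 6 h was not called (adjusted p = 0.0793). The probe set passed the filter, set at 144.7, through its 0 h arrays alone, so among genes that passed this way a fall is what the filter lets through. The 12 h call was lost without array 2 of 0 h (adjusted p = 0.0537) or without array 1 of 12 h (adjusted p = 0.0547).

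The 2 bright probe sets that list Rpl12 together with other loci were not called. The first, which lists Rpl12 and Gm11425, gave 12520.1 and 16085 at 0 h and 14093 and 13469 at 24 h. Its log2 change was -0.04 ± 0.21 (SE, limma adjusted p = 0.888 over 12440 probe sets). The second, with Gm15793, Gm32899 and Gm11425 listed as well, had a log2 change of 0.08 ± 0.21 (adjusted p = 0.797). The probe set of Rpl12 alone and these shared ones thus gave different values, and the sources used here do not give the transcripts that each detects.

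Rps25, a small subunit protein needed by some viral and cellular internal ribosome entry sites, gave 1273 and 1382 at 0 h, 1365 and 1084 at 6 h, 1124.5 and 1297 at 12 h, and 968 and 859 at 24 h. Both 24 h arrays were below all 6 others. The mean fell from 1327 ± 77.2 (SD, n = 2) at 0 h to 914 ± 77.0 at 24 h, a log2 change of -0.52 ± 0.17 (limma adjusted p = 0.0291). The call was lost without array 1 of 0 h (adjusted p = 0.0697), array 2 of 0 h (0.132), array 1 of 24 h (0.0544) or array 2 of 24 h (0.140), and with no filter on low signals (0.0760). The probe set that lists Rps25 with Gm6988 and Gm4963 gave 6417 ± 285 at 0 h and 6687 ± 442 at 24 h (log2 change 0.06, adjusted p = 0.822).

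**Figure D3:**
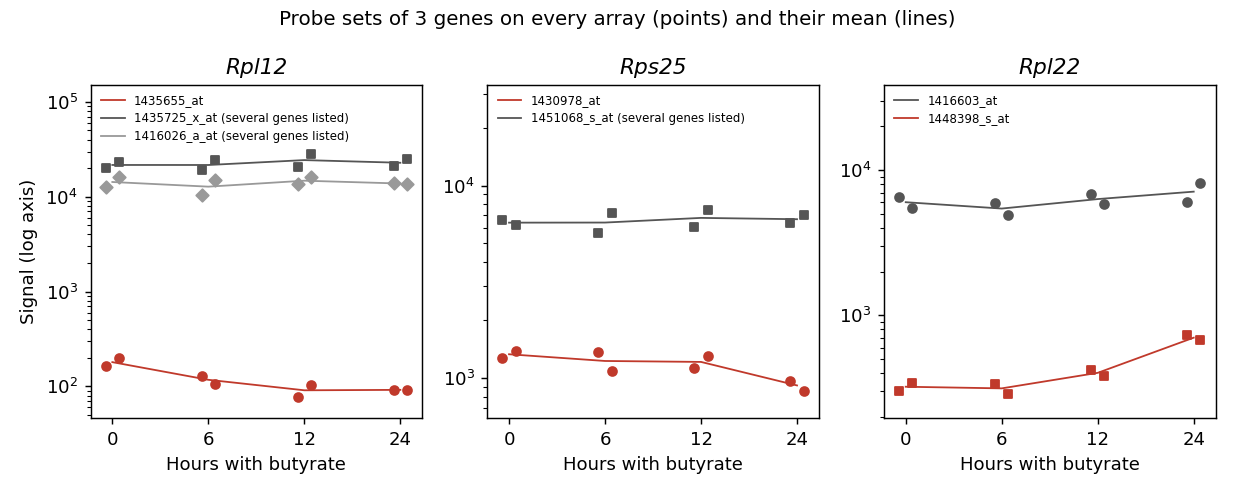
Signal (vertical axis, log scale) against hours with butyrate (horizontal axis, the 4 times evenly spaced) for the probe sets of Rpl12, Rps25 and Rpl22, with a point for each array and lines through the means of the 2 arrays. The probe sets of 1 gene part from each other: the dimmest sets of Rpl12 and Rps25 fall while the brighter ones were not called, and the dimmer set of Rpl22 rises from a mean of 322 to 701.

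Rpl22, an RNA-binding large subunit protein with a role in lymphocyte development, had 2 probe sets to itself that differed. The brighter gave 6521 and 5500.1 at 0 h, 5925 and 4944 at 6 h, 6831 and 5801 at 12 h, and 6048 and 8166 at 24 h, a log2 change at 24 h of 0.23 ± 0.20 (limma adjusted p = 0.367). The dimmer gave 302 and 342 at 0 h, 339 and 289 at 6 h, 422 and 381 at 12 h, and 728 and 675 at 24 h. Both 24 h arrays of the dimmer set were above all 6 others, and its signal + 32 rose 2.07-fold, a log2 change of 1.05 ± 0.17 (adjusted p = 0.00068). Rpl22 was thus called higher at 24 h on 1 of its probe sets and not on the other.

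Across all probe sets that list a ribosomal protein gene, calls were few as well. Besides the chosen ones, 36 further probe sets of a single ribosomal protein gene passed the filter, and at 24 h limma called 1 higher, that of Rpl22, and 2 lower, together 3 of 36, against 44.1% of 12440 probe sets. The 2 lower were those of Rpl41, at 287 and 115 at 0 h and 41.9 and 57.6 at 24 h, and of Rps20, at 112 and 155 at 0 h and 83.7 and 74.3 at 24 h. Their adjusted p values were 0.00439 and 0.0388, and the signals were low. Both sets were under the filter's threshold on the 24 h arrays and passed through arrays of 0, 6 and 12 h. Among sets that passed this way, a fall at 24 h is what the filter lets through, as for Rpl12.

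Of 102 probe sets that list a ribosomal protein gene with others, mostly predicted loci with Gm symbols, 92 passed, and they cover the 27 symbols with no probe set of their own. At 24 h 0 were called higher and 2 lower, together 2.17% against 44.1% of 12440 probe sets, and the median log2 change was 0.01. At 6 and 12 h 0 were called higher and 1 lower, 1.09% at each time against 11.7% and 31.9%. The 2 called at 24 h were a set that lists Rpl13 and Tax1bp3 and a set that lists Rpl3 with Gm5879 and Gm12816. The first was also the 1 called at 6 and 12 h. The first gave 3153 and 3697 at 0 h and 1912 and 2407.5 at 24 h, the second 143 and 126 at 0 h and 40.3 and 78 at 24 h. The second passed the filter only through an array of 6 h, at 148.6, and an array of 12 h, at 146.2. Its call thus compares arrays that were all under the filter's threshold. Signals of these probe sets can come from any of the genes they list. Among the chosen probe sets, 13 carry the suffix _x_at and 1 the suffix _s_at, by which the maker marks probes that may match several transcripts, so near-identical copies may share their signal too.

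Rps27 showed how much a single array can weigh. Its signals were 223 and 313 at 0 h, 294.5 and 252 at 6 h, 183 and 673 at 12 h, and 249 and 253 at 24 h. Array 2 of 12 h stood far above the other 7, and the log2 change at 12 h was 0.39 ± 0.42 (SE, limma adjusted p = 0.495). Without array 1 of 12 h the change was 1.25 (adjusted p = 0.00531), a value that rests on that 1 high array.

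The genes also shared a difference between the arrays of a time. They were higher on array 2 than on array 1 in 36, 34, 39 and 37 of the 41 at 0, 6, 12 and 24 h, with median differences of 0.20, 0.38, 0.34 and 0.28 log2 units. Over all 7340 genes the medians lay between -0.02 and 0.01. The median signal of the 41 genes was 14447, 13437, 15378 and 15534 on array 1 of 0, 6, 12 and 24 h, and 18138, 18142, 18895 and 18864.5 on array 2. The difference between the arrays of a time was thus larger than the median change with butyrate at every time.

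**Figure D4:**
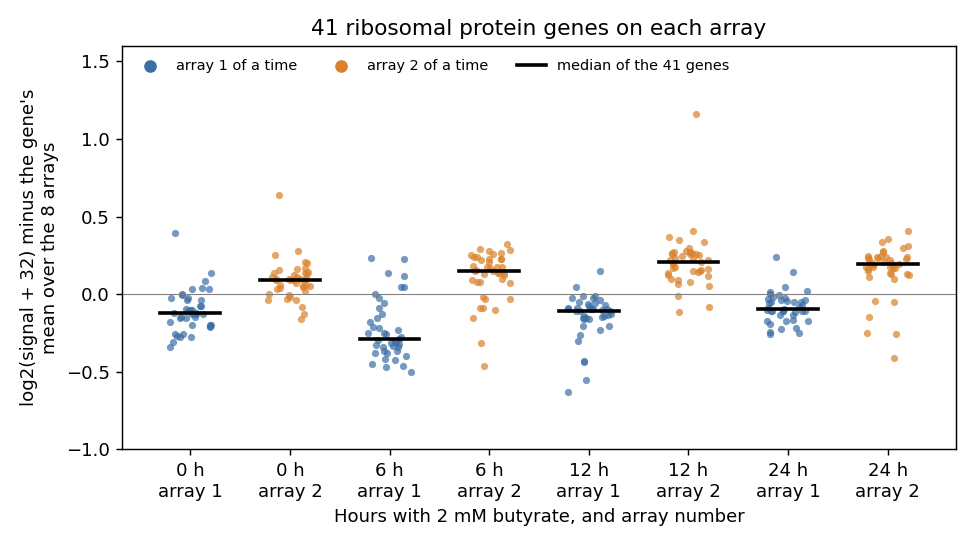
Log2(signal + 32) minus the gene's mean over the 8 arrays (vertical axis) for the 41 genes on each array (horizontal axis), with a point per gene and a black bar at the median. The medians lie between -0.29 and -0.09 on array 1 of every time and between 0.09 and 0.21 on array 2, and the point near the top at 12 h on array 2 is Rps27.

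When the replicate number was tested itself with limma, 0 of the 41 genes were called, where the same test called 0% of all genes higher and 0.0136% lower. An unadjusted p under 0.05 was found for 30 of the 41, and for 1369 of the 7340 genes, and the log2 differences of the 41 ranged from -0.08 to 0.54 with a median of 0.32. The 109 other bright genes showed a smaller median difference, from 0.10 to 0.25 at the 4 times. After quantile normalization, which gives each array the same distribution of signals, 24, 20, 23 and 18 of the 41 were higher on array 2, and 3 of 41 had an unadjusted p under 0.05. Quantile normalization also brought the median standard error of the 41 genes to 0.15 and raised the count of intervals within 1.5-fold to 36, 37 and 32 at 6, 12 and 24 h. The calls stayed at 0 at 6 h, 1 lower at 12 h and 2 lower at 24 h.

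Compared within the same replicate number, the median log2 change at 6 h was -0.14 among arrays 1, with 11 of 41 genes above 0, and 0.08 among arrays 2, with 26 above 0. At 12 h they were -0.024 and 0.13, with 17 and 33 above 0, and at 24 h 0.036 and 0.13, with 24 and 31 above 0. The median of the group thus differed in sign between the series at 6 and 12 h and was above 0 in both at 24 h. At 24 h the medians of all genes were 0.041 among arrays 1 and 0.034 among arrays 2. Among arrays 1 the group thus did not exceed all genes. Leaving out array 2 alone sets array 1 of a time against both 0 h arrays, and the medians were then -0.10 at 12 h and -0.077 at 24 h. Rpl12 was lower at 24 h in both series, by -0.64 and -0.90 log2 units, and Rps25 by -0.38 and -0.67. Rpl12 passed the filter through its 0 h arrays alone, so its fall in both series is no independent support for its call. For both genes the 24 h arrays lay below the 0 h arrays, so a fall in each series was given in advance. It is no independent support for the call of Rps25 either.

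Of 3 like-genes tested, Rpl22l1, Rpl7l1 and Rps27l, 1 was called at 24 h, lower, or 33.3% against 48.1% of all genes. Rpl22l1, a paralog of Rpl22, had a log2 change of -0.11 (limma adjusted p = 0.759) at 24 h. Fau, not one of these 3, whose product is a fusion of a ubiquitin-like part and a small subunit protein, had one of -0.11 (adjusted p = 0.773). Rpl7l1, a paralog of Rpl7, had log2 changes of 0.41 at 12 h and 0.39 at 24 h and was not called (adjusted p = 0.0961 and 0.0937). Its 24 h change ranged from 0.32 to 0.47 when single arrays were left out, but from -0.19 to 0.47 over all the alternative settings. Rps27l, a paralog of Rps27 known as a p53 target, gave 8664 and 8013 at 0 h, 7782 and 7048 at 6 h, 6492 and 6251 at 12 h, and 4865 and 4440.3 at 24 h. All arrays of a later time lay below those of the earlier ones, and it fell by 0.84 ± 0.15 log2 units at 24 h (adjusted p = 0.0014). Its changes at 6 and 12 h, -0.17 and -0.39, were not called (adjusted p = 0.518 and 0.0752), and a test with the replicate number as a block called the one at 12 h (adjusted p = 0.0393).

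Genes for building ribosomes were called mostly in the lower direction. Of 71 tested genes for ribosome assembly and rRNA synthesis, 3 were called higher and 33 lower at 24 h, with a median log2 change of -0.44, beside 0 and 2 of the 41 ribosomal protein genes. The called share, 50.7%, was near the 48.1% of all genes, whose calls were nearly even between the directions. At 6 and 12 h, 9 and 25 of the 71 were called lower and 1 and 2 higher, shares of 14.1% and 38.0% against 15.7% and 35.6% of all genes. Nop56, a core protein of the box C/D particles that guide rRNA methylation, gave 3021 and 2963 at 0 h and 504 and 655 at 24 h, a log2 change of -2.32 ± 0.17 (limma adjusted p = 6.57e-06). Grwd1, a histone-binding protein that also acts in ribosome assembly, changed by -2.24 (adjusted p = 6.57e-06), and Riok3, a kinase linked to the maturation of the small subunit, rose by 0.70 (adjusted p = 0.00474). These and the other genes outside the ribosomal protein group with values here were, beyond those of a list set with the design, chosen after their values were seen.

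**Figure D5:**
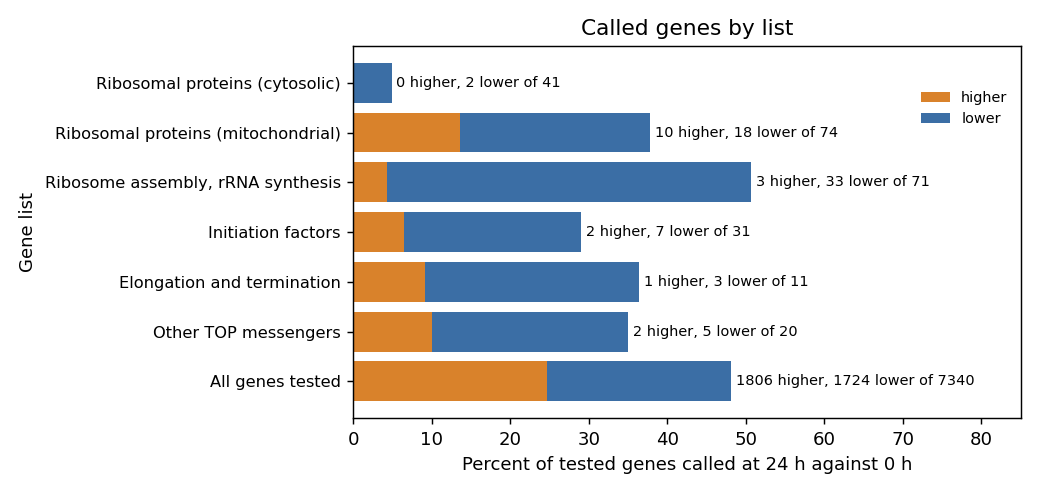
Percent of tested genes (horizontal axis) called higher or lower at 24 h against 0 h for the ribosomal protein genes, the other gene lists and all 7340 genes (vertical axis), with the counts beside each bar. The ribosomal protein genes have 0 higher and 2 lower of 41, the ribosome assembly list 3 higher and 33 lower of 71, and all genes 1806 higher and 1724 lower.

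The 74 genes for proteins of the mitochondrial ribosome moved in both directions. At 24 h 10 were called higher and 18 lower, together 37.8% against 48.1% of all genes, with a median log2 change of -0.15. Mrps28 changed by -1.08, while Mrps12 changed by 0.95 and Mrpl28 by 0.87, all called by limma. At 6 h, 3 were higher and 3 lower, and at 12 h 10 and 11, or 8.11% and 28.4% against 15.7% and 35.6% of all genes.

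Other translation genes included both called and uncalled members. Of 31 initiation factors 2 were called higher and 7 lower at 24 h, or 29.0% against 48.1% of all genes. Eif5, which promotes GTP hydrolysis at start codon recognition, gave 7173 and 5900 at 0 h and 3035.5 and 2167 at 24 h (log2 change -1.33, limma adjusted p = 0.000416). Of 11 elongation and termination genes 1 was called higher and 3 lower, or 36.4%. Eef1a1 and Eef2, the main elongation factors, had log2 changes of 0.10 and 0.32 and were not called (adjusted p = 0.739 and 0.133).

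Among 20 other genes known for TOP mRNAs, 2 were called higher and 5 lower at 24 h, or 35% against 48.1% of all genes. Npm1, a nucleolar chaperone, gave 10407 and 11634 at 0 h and 6386 and 7036 at 24 h, and Nap1l1, a histone chaperone, gave 5570 and 5761 at 0 h and 2612 and 3017 at 24 h. Their log2 changes were -0.71 and -1.004 (limma adjusted p = 0.00348 and 0.000693). Tpt1 and Pabpc1, known TOP mRNAs, had log2 changes of 0.31 and 0.19 and were not called (adjusted p = 0.298 and 0.433).

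Of 15 genes that control TOP mRNAs through mTOR, 4 were called higher and 1 lower at 24 h, or 33.3% against 48.1% of all genes. Larp1 gave 2388 and 2110.5 at 0 h and 1430 and 1277 at 24 h, a fall of 0.72 ± 0.16 log2 units (limma adjusted p = 0.00386). Tsc2, which restrains mTOR, rose by 1.13 ± 0.16 (adjusted p = 0.000254). Mtor had a log2 change of 0.45 ± 0.17 and was not called (adjusted p = 0.0557). It was called under the stricter filter, quantile normalization, median centring, trend and robust eBayes, and the replicate block (limma adjusted p from 0.0380 to 0.0476). With other pseudocounts, no filter or only the 4 arrays compared, Mtor was not called. Leaving out single arrays, its log2 change ranged from 0.28 to 0.61, the highest without array 1 of 0 h, where it was also called. On a second probe set the log2 change of Mtor was -0.029 (adjusted p = 0.914). Larp1 was also called lower at 12 h, by -0.67 (adjusted p = 0.00814), a call lost without array 1 of 0 h (0.0609) or array 2 of 12 h (0.0525).

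Of 10 genes for factors that bind promoters of ribosomal protein genes, 0 were called higher and 5 lower at 24 h, a called share of 50% beside the 48.1% of all genes. Gabpb1, the partner subunit of GABP, gave 299.5 and 241 at 0 h, 106 and 77.1 at 6 h, 112 and 127 at 12 h, and 152 and 133 at 24 h. Its log2 changes were -1.29, -0.99 and -0.78 at 6, 12 and 24 h (limma adjusted p = 0.00185, 0.00223 and 0.00503). Only 1 of its later arrays was above the filter's 144.7, so it passed through its 0 h arrays, as Rpl12 did, though with no filter it was also called at 24 h (adjusted p = 0.0222). Myc gave 1077 and 1134 at 0 h and 512 and 506 at 24 h, a log2 change of -1.07 (adjusted p = 0.00123). Gabpa, the DNA-binding subunit of GABP, and Yy1 had log2 changes of -0.12 and -0.21 at 24 h and were not called (adjusted p = 0.667 and 0.395). A second probe set of Yy1 was called lower at 24 h, by -0.63 (adjusted p = 0.0402), and at 12 h, by -0.64 (adjusted p = 0.0465).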

How the data were processed

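Per the labels, the sample was total RNA, the label phycoerythrin and the array the Mouse Expression Array 430A. The authors deposited a table of linear intensity (signal) for 22690 probe sets on 8 arrays, made with software that the sources used here do not give. Gene symbols came from the platform annotation, and all 42 ribosomal protein genes were found in RefSeq with the same symbol. The deposited intensities were used as they stand. Of 22690 probe sets, 64 were controls, 691 listed several genes and 1555 were not listed. Genes with a probe set of their own were kept where at least 2 of 8 arrays exceeded the median signal of 144.7. Groups and replicate numbers came from the titles. The test was limma 3.58.1 (R 4.3.3), lmFit and eBayes on log2(intensity + 32), with group means over all 8 arrays, 4 residual degrees of freedom and Benjamini-Hochberg adjustment over 7340 genes. Intervals are 95% and unadjusted. The script was tested on simulated data. For the replicate block, same-numbered arrays deviated together, with a correlation of 0.125 to 0.382 in all 6 pairs of times, and arrays of 1 number were treated as a pair on this basis, which the labels do not state.

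The genes named in each comparison were called members whose 2 groups of arrays do not overlap, the 3 members with the highest mean signal, and a list of members and related genes. The members, the lists and the tests were chosen with earlier results of these data known. Alternatives were other pseudocounts (16 and 64), no filter and a stricter one, quantile normalization, median centring, a second probe set per gene, trend and robust eBayes, only the 4 arrays compared, the replicate block, and leaving out each array. Fits over all probe sets, the test of the replicate number and the bright genes as a background were added after seeing the data.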

Additional observations from a re-analysis of the deposited data

How the results depend on the processing

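With 2 arrays per time, the number of arrays limits the precision. As deposited, the intervals of most ribosomal protein genes lay within 1.5-fold at 6 and 12 h but not at 24 h. The standard error of a gene was the same at each time, so this difference comes from the sizes of the changes. Counts of called ribosomal protein genes and their median changes were recomputed under 18 alternatives. No direction of a called value reversed. At 12 h the count called lower was 0 under the stricter filter, which drops Rpl12, a probe set above the median signal on its 0 h arrays alone. At 24 h it was 1 with no filter, where Rps25 was lost, and 1 under the stricter filter, where Rpl12 was not tested. With the second probe set per gene, 1 gene, Rpl22, was called higher at 24 h, and 1 gene was called higher at 24 h against 12 h. The median at 12 h against 6 h was 0.11 as deposited and -0.028 after quantile normalization, which also took the 12 h median from 0.06 to -0.0035 and the 24 h median from 0.09 to 0.021.

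Leaving out each array in turn, the median log2 change ranged from -0.25 to 0.18 at 6 h, from -0.10 to 0.22 at 12 h and from -0.077 to 0.22 at 24 h. It ranged from -0.11 to 0.34 for 12 h against 6 h and from -0.18 to 0.17 for 24 h against 12 h. The lowest and highest 6 h medians came without array 2 and without array 1 of 6 h, and the same held for the 12 h and 24 h medians with the arrays of those times. The count called higher at 12 h ranged from 0 to 1, that called lower at 12 h from 0 to 1, at 24 h from 1 to 2, and at 24 h against 12 h from 0 to 1. With the replicate block the counts called lower were 0, 1 and 2 at 6, 12 and 24 h, and 0 were called higher. The block changed no call of a ribosomal protein gene, while the share of all genes called was 21.7%, 42.4% and 54.1%.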
